A study of Mus musculus with 17 samples.

Results

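Homeostatic astrocyte genes are those that resting astrocytes use to keep the surroundings of neurons stable, and 9 of them were followed here in the dorsal hippocampus of mice with and without Acss2 and with and without injected tau. They were chosen by name: the glutamate transporters Slc1a2 and Slc1a3, the glutamine synthetase gene Glul, the connexin genes Gja1 and Gjb6, the water channel gene Aqp4, the bicarbonate transporter gene Slc4a4, the aldolase gene Aldoc and the folate enzyme gene Aldh1l1. Each of the 9 symbols matched 1 row among the 24498 gene symbols in the table of read counts. All 9 passed the filter on low counts in each fit.

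Poly(A) RNA was sequenced from slices of dorsal hippocampus of mice that were wild type (WT) or constitutive knockouts (KO) of Acss2, which encodes the enzyme that makes acetyl-CoA from acetate. Both genotypes descended from heterozygote crosses and were then bred as homozygotes. At 6 months of age the mice had received tau purified from the brains of Alzheimer's disease patients (Tau) or phosphate-buffered saline (PBS) in the right dorsal hippocampus. The paper states that mice were characterized 6 months after injection. The 17 libraries fell into 6 groups. Males formed the groups WT PBS, WT Tau, KO PBS and KO Tau, with 3 libraries each, and females the groups KO Tau, with 3, and WT Tau, with 2. No group of females received PBS, so the effect of Tau in females could not be measured, and sex cannot be told apart from anything else in which the male and female libraries differed. The knockout was in all cells of the body rather than in astrocytes alone, and the slice held every cell type of CA1, CA2, CA3 and the dentate gyrus. Fewer astrocytes and less RNA per astrocyte cannot be told apart in such bulk samples. The extraction protocol in the labels describes perfusion with a fixative before dissection.

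Each library is called by its label's number. The labels do not state that each number was a separate mouse, so p-values describe the spread between libraries. Total counts ran from 14183131 to 22463635, and levels are given as CPM, the count as a share of the library's total on a fixed scale. A count of 0 allows a level of up to 0.134 to 0.212 CPM by counting error, far under the lowest value of any of the 9 genes, 41.3 CPM. Acss2 itself was at 44.0 to 54.6 CPM in the 8 WT libraries and at 3.07 to 8.81 CPM in the 9 KO libraries, which follows the labels.

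Astrocytes take up the glutamate that neurons release, convert it to glutamine and hand it back. They also spread potassium and metabolites through gap junctions, move water and bicarbonate between blood vessels and tissue, and store and break down sugars. Genes of this program are widely used as markers of astrocytes in the hippocampus, and several of them change when astrocytes become reactive, a state in which Gfap, an intermediate filament gene, rises.

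Promoter windows of the transporter pair and of the connexin pair are shown because the 2 genes of a pair share a role but, for the connexins, not their course over the libraries, as described after the comparisons. They are the 250 bases before a transcript start annotated by RefSeq on build GRCm38.p6. Windows were taken for 8 of the 9 genes, 10 in all, and Aqp4 was left out. Capitals mark TTGGC or its reverse complement GCCAA, the half-site of nuclear factor I, a family of transcription factors that acts in astrocyte development.
Slc1a2 (chr2:102706188-102706437, plus strand): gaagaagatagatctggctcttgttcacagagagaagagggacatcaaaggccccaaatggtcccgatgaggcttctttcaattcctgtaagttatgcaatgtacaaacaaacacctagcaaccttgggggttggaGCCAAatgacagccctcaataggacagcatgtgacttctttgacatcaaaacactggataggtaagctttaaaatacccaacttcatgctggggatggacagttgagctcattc
Slc1a3 (chr15:8710808-8711057, minus strand): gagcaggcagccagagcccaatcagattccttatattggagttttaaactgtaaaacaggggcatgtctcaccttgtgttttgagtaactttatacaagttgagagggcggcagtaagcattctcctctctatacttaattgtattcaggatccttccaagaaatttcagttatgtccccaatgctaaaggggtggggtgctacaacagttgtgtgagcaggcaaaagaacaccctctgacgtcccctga
Gja1 (chr10:56377050-56377299, plus strand): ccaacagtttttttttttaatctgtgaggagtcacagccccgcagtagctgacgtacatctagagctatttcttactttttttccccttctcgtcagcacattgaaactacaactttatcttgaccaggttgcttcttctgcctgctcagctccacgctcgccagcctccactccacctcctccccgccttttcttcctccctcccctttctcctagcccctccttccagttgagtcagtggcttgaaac
Gjb6 (chr14:57133612-57133861, minus strand): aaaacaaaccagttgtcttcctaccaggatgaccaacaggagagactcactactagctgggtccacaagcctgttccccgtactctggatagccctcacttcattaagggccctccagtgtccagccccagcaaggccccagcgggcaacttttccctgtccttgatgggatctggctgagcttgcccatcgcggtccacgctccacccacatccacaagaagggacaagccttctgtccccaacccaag
The transcript start behind the Slc1a2 window lies 47779 bases inside the span that GENCODE gives the gene, so this window is not upstream of the whole gene, as the other 3 shown are. The same holds, at 64366 bases, for the Aldh1l1 window, at 442 and 141148 for both Slc4a4 windows and, at 1230, for the second Aldoc window. The first Aldoc window reaches 105 bases into the gene. Of the 4 windows shown the Slc1a2 window alone held the half-site, 1 time. Over the 10 windows 5 held it, in Slc1a2, Glul, both windows of Slc4a4 and the upstream window of Aldoc, against 41.5% of the 32851 windows of all genes. None of the 10 held ATTGTT or AACAAT, the core letters bound by SOX factors, which were in 9.42% of all windows. The share of G and C was 44.8% in both transporter windows, 50.0% for Gja1 and 56.8% for Gjb6, with a median of 52.4% over all windows. The motifs were chosen after the expression values were known, a match is a description of the letters, and no match says nothing about the factor.

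Per kilobase of exon, the 9 genes spanned a wide range of levels, and the top of the order was the same in all 6 groups. Glul was highest, then Aldoc, Slc1a2 and Slc1a3. In male WT PBS these had mean levels of 489, 293, 180.0 and 72.8 CPM per kilobase. The other 5 genes lay between 15.5 and 20.7 CPM per kilobase in that group, and their order changed from group to group. Lengths were those of all annotated exons of a gene joined. With the longest transcript in its place the first 4 kept their order and Gja1, whose joined exons measure 10257 bases, became the fifth in every group, at 48.5 CPM per kilobase in male WT PBS.

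The main transporter of glutamate in the adult hippocampus is the product of Slc1a2 (GLT-1). The gene lies at chr2:102658659-102790784 on the plus strand in the GENCODE annotation of GRCm38, as do all positions given here. Slc1a2 stood at 2346, 2449.5 and 2297 CPM in WT PBS males, 2403, 2416 and 2359 in WT Tau males, 2161, 2740.4 and 2264 in KO PBS males and 4045, 2137 and 2213 in KO Tau males. The library KO Tau 711 lay above all other male libraries, and the other 11 overlapped. In females it stood at 3824 and 2997 CPM in female WT Tau and 4922, 3509 and 3474 in female KO Tau, all above the male libraries other than 711.

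Slc1a3 (GLAST), the second glutamate transporter of astrocytes, lies at chr15:8634124-8710764 on the minus strand. It was at 648, 622 and 595 CPM in WT PBS males, 607, 620.5 and 585 in WT Tau males, 559, 512 and 572 in KO PBS males and 915, 547 and 543 in KO Tau males. The 3 KO PBS libraries lay below the 3 WT PBS libraries, and 711 again stood above every other male library. Female values were 934 and 879 CPM in female WT Tau and 981, 749 and 828 in female KO Tau, of which all 5 exceeded the 11 male libraries other than 711.

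Glul encodes glutamine synthetase, which converts the glutamate taken up into glutamine, and lies at chr1:153899944-153909723 on the plus strand. Oligodendrocytes also express it. Its levels were 1614, 1740.0 and 1521 CPM in WT PBS males, 1755, 1822 and 1675 in WT Tau males, 1455, 1617 and 1705 in KO PBS males and 2959, 1571 and 1727 in KO Tau males. Outside 711 the male groups overlapped. Female libraries held 3706 and 2541 CPM in female WT Tau and 3213, 3414 and 3779 in female KO Tau, of which 4 lay above 711 and 1, in library 341, below it. Teddm2, the one gene in the table that overlaps Glul on the opposite strand, had at most 43 counts in a library.

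Gja1 and Gjb6 encode connexin 43 and connexin 30, which form the gap junctions between astrocytes. Gja1 (chr10:56377330-56402513, plus strand) was at 201, 189 and 176 CPM in WT PBS males, 214, 214 and 186 in WT Tau males, 171, 139 and 203 in KO PBS males and 305, 174 and 174 in KO Tau males. The female values were 361 and 229.7 CPM in female WT Tau and 207, 209.9 and 297 in female KO Tau, and these overlapped the male values even without 711, since 207 CPM in library 314 lay within the male WT Tau range. Gjb6 (chr14:57123303-57133611, minus strand) was at 55.9, 53.3 and 56.5 CPM in WT PBS males, 49.2, 62.2 and 48.5 in WT Tau males, 41.3, 67.4 and 59.3 in KO PBS males and 66.7, 61.0 and 55.8 in KO Tau males. For Gjb6 the library 711 lay within the range of the other male libraries. Females had 154 and 95.8 CPM in female WT Tau and 93.6, 113 and 155 in female KO Tau, with every female library above every male library.

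Aqp4 encodes the main water channel of astrocytic endfeet, the processes that wrap blood vessels. Aqp4 was at 133, 118 and 105 CPM in WT PBS males, 128, 157 and 116 in WT Tau males, 114, 68.7 and 121 in KO PBS males and 182, 99.3 and 95.4 in KO Tau males. The lowest male value was in KO PBS 752 and the highest in KO Tau 711. Female libraries had 379.9 and 238 CPM in female WT Tau and 141, 186 and 308 in female KO Tau. Library 314 lay within the male range, and within female KO Tau the relative spread was the widest of the 9 genes.

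Slc4a4 encodes NBCe1, which moves sodium and bicarbonate together and sets the acidity inside and outside astrocytes (chr5:88886818-89239653, plus strand). It was at 188, 162 and 153 CPM in WT PBS males, 169, 189.7 and 153 in WT Tau males, 173, 191 and 162 in KO PBS males and 264, 132 and 136 in KO Tau males. KO Tau 712 and 713 had the lowest values of the 12 male libraries and 711 the highest. The female values were 312 and 292 CPM in female WT Tau and 252, 269.9 and 349 in female KO Tau, of which 1, in library 314, fell below 711.

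Aldoc encodes the brain form of the glycolytic enzyme aldolase (chr11:78322968-78327781, plus strand). Levels of Aldoc were 971, 937 and 957 CPM in WT PBS males, 920.3, 903 and 911 in WT Tau males, 770.0, 935 and 995 in KO PBS males and 1369.7, 919 and 908 in KO Tau males. The WT Tau libraries lay below the WT PBS libraries by a small margin, and 711 lay above all other males. Females had 1951 and 1647 CPM in female WT Tau and 1613, 1528 and 2034 in female KO Tau, all above every male library.

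Aldh1l1 encodes 10-formyltetrahydrofolate dehydrogenase, an enzyme of folate metabolism whose promoter is used to mark astrocytes (chr6:90486427-90600203, plus strand). Its levels were 74.3, 72.9 and 68.6 CPM in WT PBS males, 59.0, 64.3 and 65.9 in WT Tau males, 54.7, 102 and 76.9 in KO PBS males and 91.3, 81.5 and 91.7 in KO Tau males. The order differed from that of the other genes: the 3 male KO Tau libraries lay above all male WT libraries of both treatments. Library 711 was also not the highest of its own group. The highest male value was in KO PBS 752, as it was for Gjb6. Female libraries held 123 and 116 CPM in female WT Tau and 101, 106 and 120.3 in female KO Tau. Every female library was above every male library except KO PBS 752, whose value lay above 1 of the 5 female libraries, 314.

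**Figure D1:**
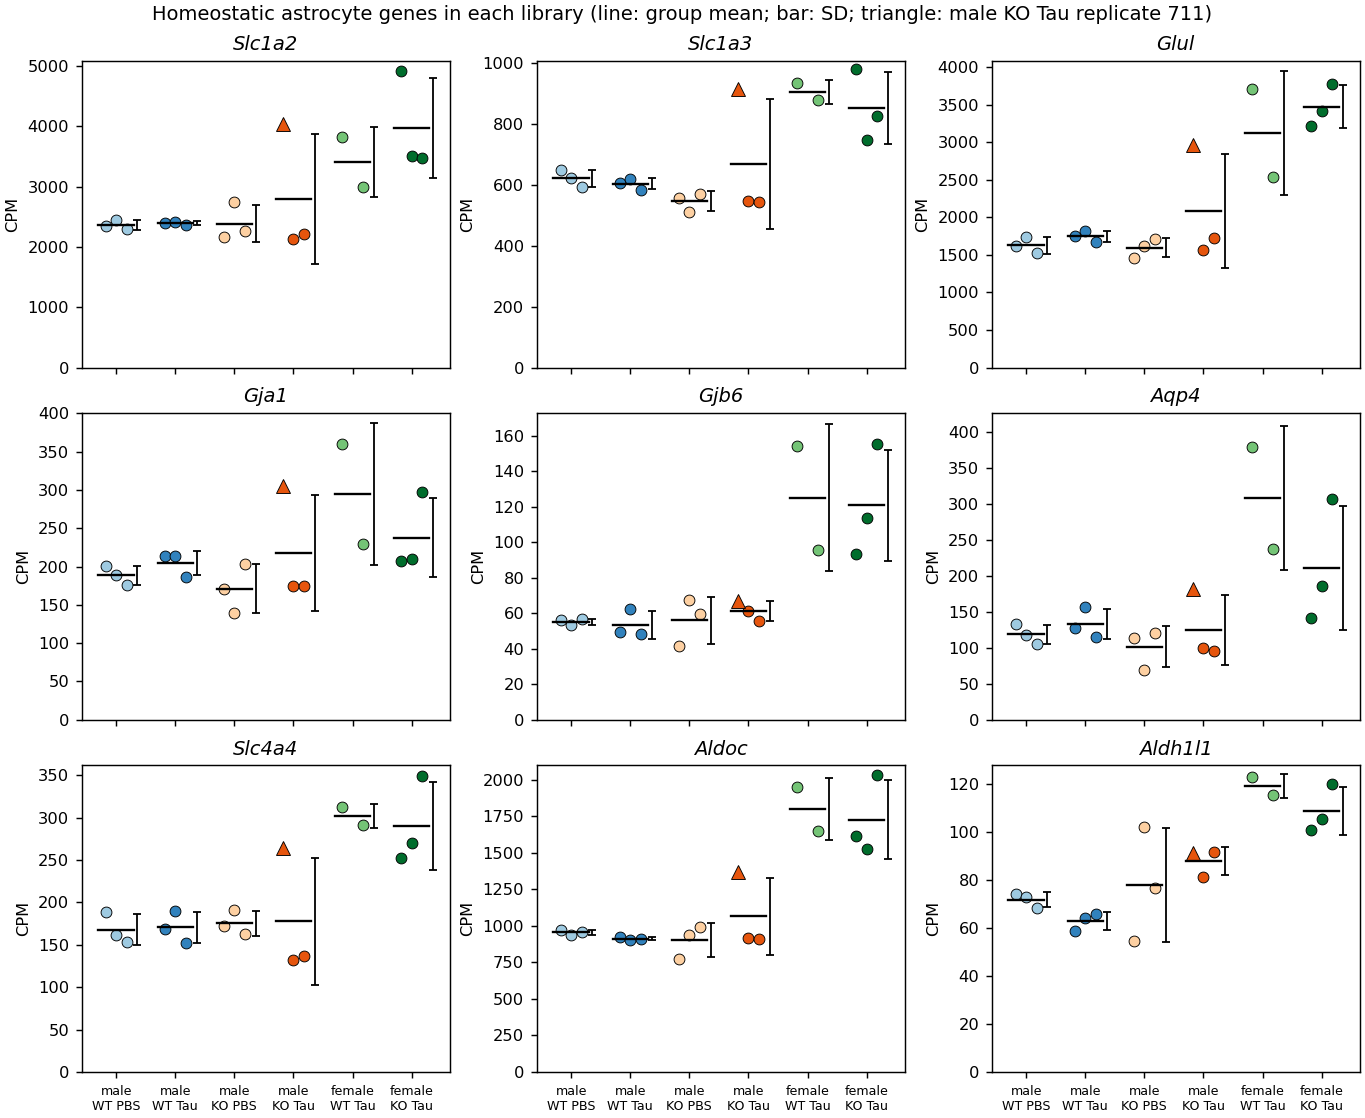
Level of each of the 9 genes (vertical axes, CPM, from 0) in each library, by group, with the group mean as a line and the SD as a bar (n = 3, and n = 2 for female WT Tau). The triangle is male KO Tau library 711, which lies above all other male libraries for 7 of the 9 genes, and all 5 female libraries lie above all 6 male Tau libraries for Gjb6, Aldoc and Aldh1l1.

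Added up, the 9 genes took 0.550 to 0.645% of all counts in the 11 male libraries other than 711, 1.02% in 711 and 0.903 to 1.17% in the 5 female libraries. In 711 all 9 genes were above their own median over the 17 libraries, as they were in each female library. In the other male libraries between 0 and 5 of the 9 were. Relative to the mean of KO Tau 712 and 713, the level in 711 was 1.97 times as high for Slc4a4, 1.86 for Aqp4, 1.86 for Slc1a2, 1.79 for Glul, 1.75 for Gja1, 1.68 for Slc1a3 and 1.50 for Aldoc. It was 1.14 times as high for Gjb6 and 1.05 for Aldh1l1, the 2 genes for which 711 did not exceed the other males. The within-group coefficient of variation of the 9 genes had a median of 34.5% in KO Tau males, against 4.32% for WT PBS, 5.74% for WT Tau and 12.9% for KO PBS. Over the 10223 genes with a mean of at least 10 CPM the same medians were 12.7%, 5.63%, 6.44% and 11.3%.

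Summed levels of markers of other cells also set 711 apart, some higher and some lower. Its summed level of 8 oligodendrocyte markers was 7682 CPM, against 3067 to 6003 in the other 11 male libraries. The sum of 8 microglial markers was 628 against 386 to 559.6 CPM, that of 7 endothelial markers 292 against 135 to 227 CPM and that of 12 reactive astrocyte genes 1183 against 284 to 983 CPM. For 5 thalamic markers it was 147 against 41.2 to 135 CPM. For 4 markers of CA1 pyramidal cells it was 883 against 349 to 797 CPM. The sum of 5 neuronal markers in 711 was the lowest of the 17 libraries, 5030.2 CPM against 6061 to 8496 in the other males. The sums for 6 dentate granule cell markers, 273 CPM, 4 markers of oligodendrocyte precursors, 114 CPM, and 5 ependymal markers, 14.1 CPM, lay within the range of the other males. KO Tau 712 and 713 also differed from WT males. Their dentate sums were 87.1 and 123 CPM, against 161 to 238 in WT males, and their CA1 sums 597 and 533, against 680 to 776. KO PBS 752 was lower still, at 72.4 and 349 CPM. For 4 neocortical markers 711 had the lowest male sum, 81.4 CPM, while 752, 712 and 713 had the highest, 606, 391 and 419.7 CPM. The sum of 10 choroid plexus markers was 4085 CPM in KO Tau 713 and at most 592 CPM in any other library. The part of these differences in the levels of the 9 genes was not tested. Comparisons that involve male KO Tau are given with and without 711.

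The first comparison asked what Tau did in WT males. The 9 genes showed little difference. Log2 fold changes of male WT Tau over male WT PBS ran from −0.20 (SE 0.17, FDR = 1.00) for Aldh1l1 to 0.15 (SE 0.26, FDR = 1.00) for Aqp4, in 1 edgeR fit of the 12 male libraries with the false discovery rate (FDR) taken over all genes tested. Their median was 0.00 with 5 of 9 positive, against −0.01 and 47.7% over the 15098 genes tested. None of the 9 passed an FDR of 0.05, as did none of the 15098 (0%), of which 281 had an unadjusted p under 0.05. The WT Tau libraries lay wholly below the WT PBS libraries for Aldoc and Aldh1l1, 2 of 9 genes, a pattern found in 5.40% of all genes.

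Without Tau, the 9 genes in KO males were also near their WT levels. In male KO PBS against male WT PBS the log2 fold changes ranged from −0.17 (SE 0.26, FDR = 0.999) for Aqp4 to 0.17 (SE 0.17, FDR = 0.999) for Aldh1l1, with a median of 0.02 and 5 of 9 positive (edgeR). Of all genes 1 was called, Acss2 (0.00662%), while 667 were under 0.05 by unadjusted p, none of them among the 9. Both of these extremes rested on library 752, which combined the lowest male level of Aqp4 with the highest male level of Aldh1l1. Without 752 the log2 fold changes in the same kind of fit were 0.04 for Aqp4 and −0.08 for Aldh1l1. For Slc1a3 the groups did not overlap, with means of 548 ± 31.6 CPM in KO PBS and 622 ± 26.9 CPM in WT PBS (SD, n = 3 each), a log2 difference of −0.13 (SE 0.17, FDR = 0.999) by edgeR. It was the 1 gene of the 9 with KO PBS wholly below WT PBS, which held for 9.39% of all genes.

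In KO males, Tau went with positive values for 8 of the 9 genes, and these rested on 1 library. The log2 fold changes of male KO Tau over male KO PBS ranged from −0.02 (SE 0.23, FDR = 0.986) for Slc4a4 to 0.35 (SE 0.20, FDR = 0.677) for Glul, with a median of 0.20 (edgeR, 0% of all genes called, 1201 with an unadjusted p under 0.05). Without 711 the median was −0.03 and 2 of 9 were positive. Glul was then at −0.00 (SE 0.10, adjusted p = 0.998) and Slc4a4 at −0.44 (SE 0.11, adjusted p = 0.329), the 1 gene of the 9 with an unadjusted p under 0.05 there (0.00307, edgeR). Slc4a4 was also the 1 gene with 712 and 713 wholly below KO PBS, as for 6.80% of all genes, and none was wholly above, against 15.6%.

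Between the genotypes under Tau, Aldh1l1 had the highest value. The log2 fold change of male KO Tau over male WT Tau was 0.50 (SE 0.17, FDR = 0.927) for Aldh1l1, with an unadjusted p of 0.0122, and the lowest was −0.06 (SE 0.26, FDR = 0.988) for Aqp4 (edgeR). The group means of Aldh1l1 were 88.1 ± 5.78 and 63.1 ± 3.62 CPM (SD, n = 3 each) and the libraries did not overlap, which was so, with KO Tau higher, for 3.85% of all genes. Acss2 was the only gene of 15098 past the FDR (0.00662%). An unadjusted p under 0.05 was found for 711 genes, a count that happens to equal a library's number. The median of the 9 genes was 0.22 with 8 positive. Without 711 the median was −0.12 with 3 positive, and Aldh1l1 stayed at 0.47 (SE 0.19, adjusted p = 0.352) while Slc4a4 came to −0.33 (SE 0.11, adjusted p = 0.352) and Aqp4 to −0.44 (SE 0.21, adjusted p = 0.377) (edgeR). Libraries 712 and 713 then lay wholly above WT Tau for Aldh1l1, as for 18.9% of all genes, and wholly below it for Slc1a2, Slc1a3, Gja1, Aqp4 and Slc4a4, 5 of 9, as for 23.4%.

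DESeq2, the tool of the study, was also fitted to male KO Tau and male WT Tau alone. The study's own bulk comparison describes fewer male KO Tau libraries than were deposited, and which of them it used is not given in the sources used here. With all 3 KO Tau libraries this fit called 1 of the 9 genes at an adjusted p under 0.05, Aldh1l1 at 0.51 (SE 0.12, adjusted p = 0.0199), with 0.144% of all genes called. Without 711 it called 3 of the 9 genes, where it called 7.13% of 19318 genes. These were 1377 genes, against 28 with all libraries. The count without this library is close to the study's number for this comparison. Without 711 Aldh1l1 was at 0.47 (SE 0.11, adjusted p = 0.000521), Aqp4 at −0.44 (SE 0.13, adjusted p = 0.0166) and Slc4a4 at −0.33 (SE 0.11, adjusted p = 0.0323) by that DESeq2 fit. Without 712 it called Aldh1l1 alone among the 9, at 0.57 (SE 0.13, adjusted p = 0.0198), with 0.0778% of all genes called. Without any 1 of the other 4 libraries, KO Tau 713 and WT Tau 771, 772 and 773, DESeq2 did not call Aldh1l1. Over all alternatives the log2 fold change of Aldh1l1 was 0.46 to 0.57. In the DESeq2 fit of all 12 male libraries, none of the 9 was called.

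Male KO Tau against male WT PBS sets both changes against neither. All 9 log2 fold changes were positive, from 0.09 (SE 0.26, FDR = 0.968) for Aqp4 to 0.37 (SE 0.20, FDR = 0.823) for Glul, with a median of 0.17, and none passed the FDR (edgeR, 0.00662% of all genes called, 956 with an unadjusted p under 0.05). Without 711 the median fell to −0.11 with 3 positive. The edgeR fit then gave −0.32 (SE 0.11, adjusted p = 0.416) for Slc4a4 and −0.19 (SE 0.08, adjusted p = 0.439) for Slc1a3. DESeq2 on the 2 groups called none of the 9 with all libraries, and 0.113% of all genes. Without 711 it called 1, Slc4a4, at −0.32 (SE 0.10, adjusted p = 0.0322), with 5.35% of 19302 genes called. These were 1032 genes, against 22 with all libraries. The count without this library is again close to the study's number for the comparison. Of the DESeq2 fits with 1 library left out, that without 711 called the most genes, here and against WT Tau. The KO Tau libraries lay wholly above WT PBS for 1 gene, Aldh1l1, at 0.30 (SE 0.17, FDR = 0.823) by edgeR, against 6.29% of all genes. Without 711 Aldh1l1 was at 0.27 (SE 0.19, adjusted p = 0.595) by edgeR and still wholly above, as 19.4% of all genes then were. Slc1a2, Slc1a3, Gja1, Aqp4, Slc4a4 and Aldoc, 6 of the 9, were then wholly below WT PBS, as were 20.8% of all genes.

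The interaction asked whether Tau acted differently in KO and in WT males. Of the 9 genes none passed the FDR and none had an unadjusted p under 0.05, with 0% of all genes called and 631 with an unadjusted p under 0.05. The differences of log2 fold changes ran from −0.03 (SE 0.32, FDR = 0.997) for Slc4a4 to 0.34 (SE 0.24, FDR = 0.996) for Aldh1l1, with a median of 0.20. Without 711 the median was −0.09, and Slc4a4 was at −0.45 (SE 0.15, adjusted p = 0.560) (edgeR). These comparisons share groups, so their values for one gene are not independent of each other.

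**Figure D2:**
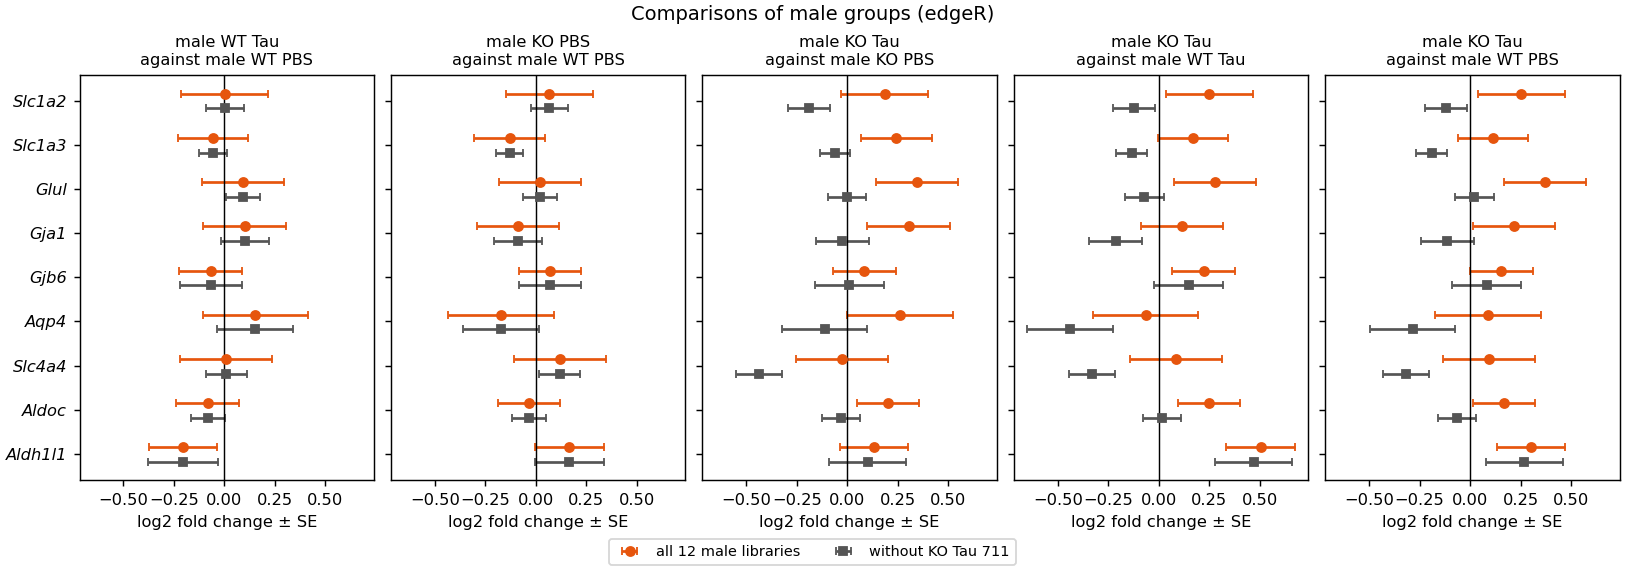
Log2 fold change (horizontal axes, with its SE as a bar) of each gene in the 5 comparisons of male groups, with all 12 male libraries (circles) and without KO Tau 711 (squares). In the 3 comparisons that involve KO Tau the squares lie to the left of the circles for all 9 genes, and Slc4a4 moves furthest below 0 in the first of these, to −0.44.

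Females injected with Tau had higher levels of these genes than males injected with Tau. Averaged over the genotypes in 1 edgeR fit of the 11 Tau libraries, all 9 log2 fold changes were positive with a median of 0.70, against −0.01 with 48.5% positive over all genes. At an FDR of 0.05 the 6 genes Gjb6, Aqp4, Aldoc, Glul, Slc4a4 and Aldh1l1 were called, where 23.8% of the 15419 genes were called in either direction and 11.4% as higher in females. Gjb6 differed most, with a log2 fold change of 1.03 (SE 0.14, FDR = 0.00288), followed by Aqp4 at 0.90 (SE 0.22, FDR = 0.0184) and Aldoc at 0.77 (SE 0.13, FDR = 0.00655). Glul was at 0.71 (SE 0.17, FDR = 0.0173) and Slc4a4 at 0.70 (SE 0.18, FDR = 0.0197) by edgeR. Aldh1l1, at 0.55 (SE 0.07, FDR = 0.00247), had a smaller difference and the smallest SE. Slc1a2 at 0.44 (SE 0.19, FDR = 0.113), Slc1a3 at 0.40 (SE 0.15, FDR = 0.0741) and Gja1 at 0.25 (SE 0.17, FDR = 0.292) did not pass. For Gjb6, Aldoc and Aldh1l1, 3 of the 9, every female library was above every male Tau library, as for 6.76% of all genes. Without 711 this held for 7 of the 9, all but Gja1 and Aqp4, and for 12.6% of all genes, while none of the 9 was wholly lower, against 11.2%.

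The call depended on single libraries. Without the male library 711 all 9 passed the FDR as higher, but so did 3276 of 15450 genes, with 40.7% called in either direction. Gja1 then had the smallest difference, 0.44 (SE 0.12, adjusted p = 0.0173), and Aqp4 the largest, 1.11 (SE 0.19, adjusted p = 0.00155) (edgeR). Without the male library 773, 3 of the 9 passed, beside 10.3% of all genes in either direction. Without the female library 331 it was 3 of the 9, beside 3.99% of all genes in either direction. In both cases these were Gjb6, Aldoc and Aldh1l1, and Gjb6 was at 0.85 (SE 0.13, adjusted p = 0.0161) without 331. All 9 stayed positive in each of these fits.

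Marker sums also differed between the sexes. The 12 reactive astrocyte genes summed to 1309 to 3227 CPM in the 5 female libraries against 422 to 1183 CPM in the 6 male Tau libraries, and 8 of the 12 were called as higher. Of these Osmr, a cytokine receptor gene, differed on the log2 scale by 1.40 (SE 0.17, edgeR FDR = 0.00191), Lcn2, which encodes lipocalin 2, 4.97 (SE 0.70, edgeR FDR = 0.00318) and C4b, a complement gene, 1.31 (SE 0.22, edgeR FDR = 0.00637). All 12 passed the filter on low counts in the fit with the female libraries, but only 9 of the 12 in the fit of male libraries. The filter may thus favour genes that are high in females, which limits the count of 8. Of the other lists, 5 of 7 endothelial and 4 of 8 microglial markers were higher, with sums of 281 to 400.3 against 184 to 292 CPM and 603 to 739.6 against 470.4 to 628 CPM. Of 5 thalamic markers 2 were higher, with a sum of 72.8 to 357 against 52.6 to 147 CPM, and of 4 neocortical markers 3 were lower, with 69.1 to 146 against 81.4 to 419.7 CPM. Of 5 neuronal markers 2 were lower and 1 higher, of 8 oligodendrocyte markers 1 was higher, and of 4 CA1 markers 1 was lower. Among 4 markers of oligodendrocyte precursors 1 was higher and 1 lower, of 5 ependymal markers 1 was higher, and none of 6 dentate granule cell or 10 choroid plexus markers was called. Of all 15419 genes, 1757 (11.4%) were called as higher and 1917 as lower, so counts such as 1 of 8 lie near the share of all genes.

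These marker calls also moved with library 711. Without it 9 of 12 reactive astrocyte genes, 6 of 7 endothelial, 5 of 5 thalamic, 3 of 8 oligodendrocyte and 2 of 6 dentate granule cell markers were higher in females. Lower were 4 of 5 neuronal, 4 of 4 neocortical and 4 of 10 choroid plexus markers, of which the last were highest in male KO Tau 713. The counts for microglia, CA1, oligodendrocyte precursors and ependyma were as with 711. Of all 15450 genes tested without 711, 3276 were called as higher and 3014 as lower, so small counts of markers lie near the share of all genes. The part of these differences in the values of the 9 genes was not tested.

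**Figure D3:**
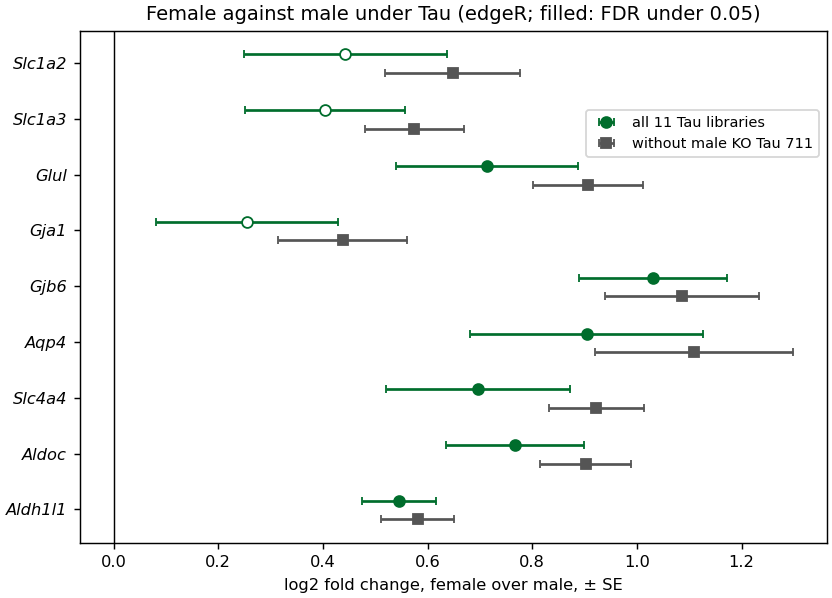
Log2 fold change of female over male Tau libraries (horizontal axis, with its SE as a bar) for each of the 9 genes, with all 11 Tau libraries (circles) and without male KO Tau 711 (squares), filled where the FDR is under 0.05. All values lie to the right of 0, from 0.25 for Gja1 to 1.03 for Gjb6 with all libraries, and 6 circles and 9 squares are filled.

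**Figure D4:**
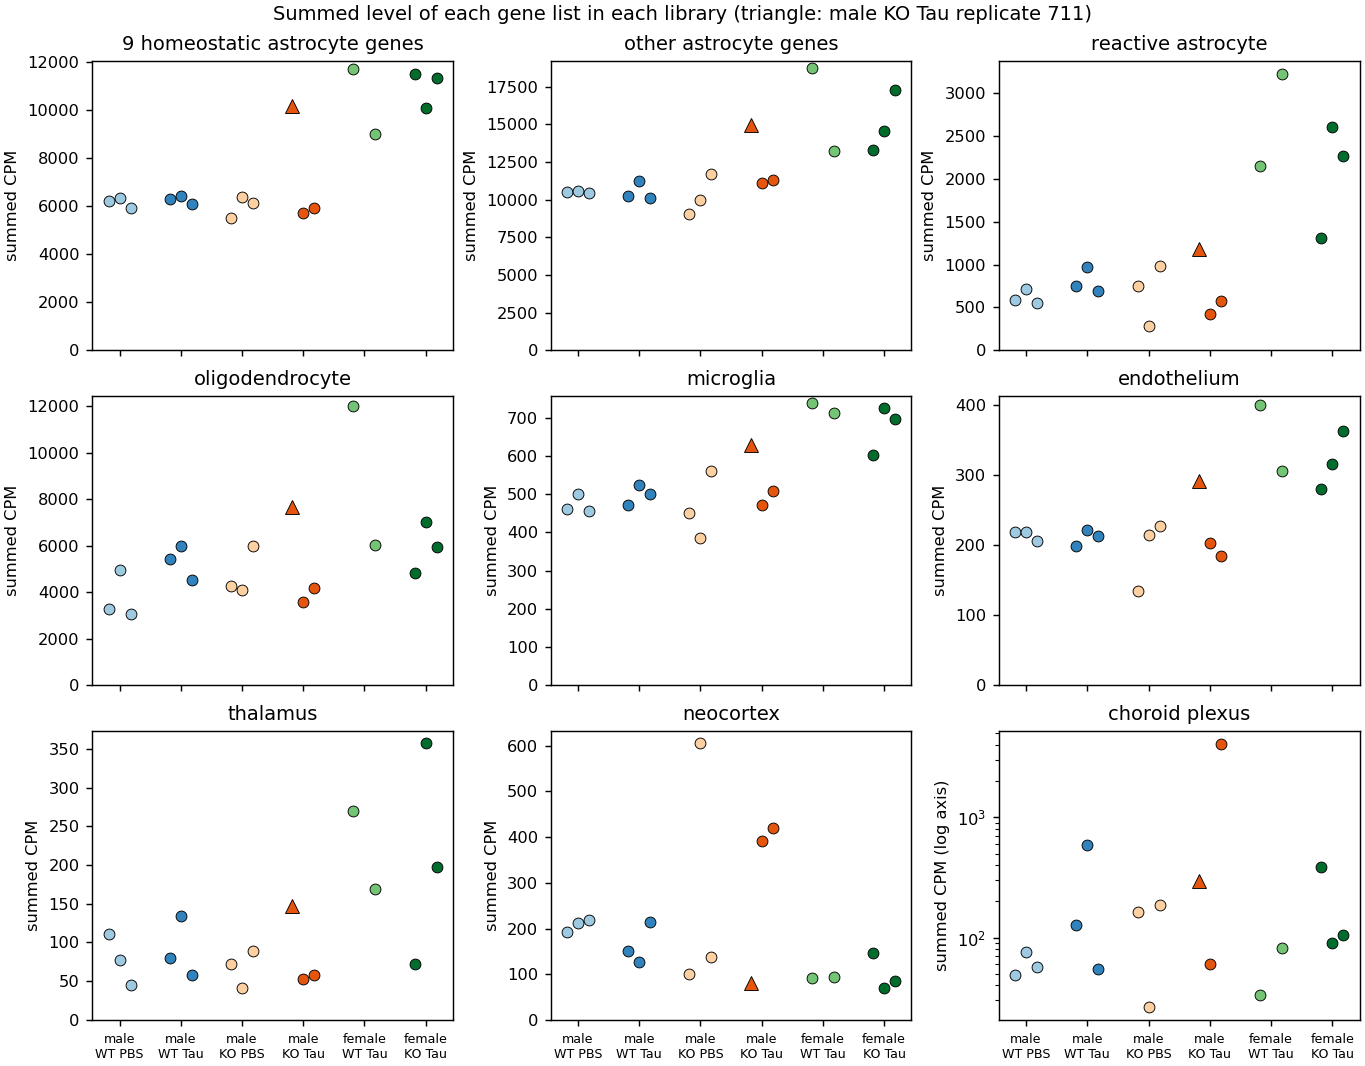
Summed level (vertical axes, CPM, a log axis for the choroid plexus) of the 9 genes and of 8 lists of marker genes in each library, by group, with male KO Tau 711 as a triangle. The sum of the 9 genes was 9034 to 11745 CPM in females, 10197 in 711 and 5499 to 6448 in the other 11 male libraries, and the thalamic and neocortical sums also differ between libraries.

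In females, KO and WT did not differ detectably. The log2 fold changes of female KO Tau over female WT Tau ran from −0.51 (SE 0.33, FDR = 0.997) for Aqp4 to 0.28 (SE 0.29, FDR = 0.997) for Slc1a2, with a median of −0.01 and 2 of 9 positive (edgeR, 0.00649% of all genes called, 446 with an unadjusted p under 0.05). The libraries of the 2 groups overlapped for all 9 genes, and the SE of the Aqp4 value was the largest of the 9. Whether the genotype effect under Tau differed between the sexes was tested as an interaction, in which none of the 9 passed the FDR, with 0% of all genes called and 454 with an unadjusted p under 0.05. The lowest value was −0.59 (SE 0.14, FDR = 0.978) for Aldh1l1, with an unadjusted p of 0.00151, and the highest 0.03 (SE 0.39, FDR = 1.00) for Slc1a2 (edgeR). Aldh1l1 was at 109 ± 10.1 CPM in female KO Tau (SD, n = 3) and 119 ± 5.07 CPM in female WT Tau (SD, n = 2), the opposite order to that in males. Without 711 its interaction value was −0.55, while the median of the 9 genes moved from −0.23 to −0.02.

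Over all 6 groups at once, 6 of the 9 genes differed somewhere at an FDR of 0.05, as did 19.0% of 15594 genes (edgeR, 17 libraries). They were Glul, Gjb6, Aqp4, Slc4a4, Aldoc and Aldh1l1. Gja1, with an FDR of 0.311, Slc1a2, with 0.119, and Slc1a3, with 0.0904, did not pass. Without 711, 8 of the 9 passed, as did 30.2% of all genes, and Gja1, with an adjusted p of 0.0578 (edgeR), did not.

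The 2 pairs of related genes kept different proportions. Per kilobase, Slc1a2 was 2.22 to 3.48 times as high as Slc1a3 over the 17 libraries, highest in KO PBS 752 at 3.48 and next in female KO Tau 314 at 3.26. In 711, where both transporters were high, the ratio was 2.87. The ratio of Gjb6 to Gja1 per kilobase was 1.60 to 2.07 in the 5 female libraries and 0.840 to 1.34 in 11 of the 12 male libraries, with 1.86 in the remaining one, KO PBS 752. The lowest ratio of all was in 711, where Gja1 was high and Gjb6 was not. The absolute ratio depends on the length taken for Gja1, and its order over libraries does not.

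**Figure D5:**
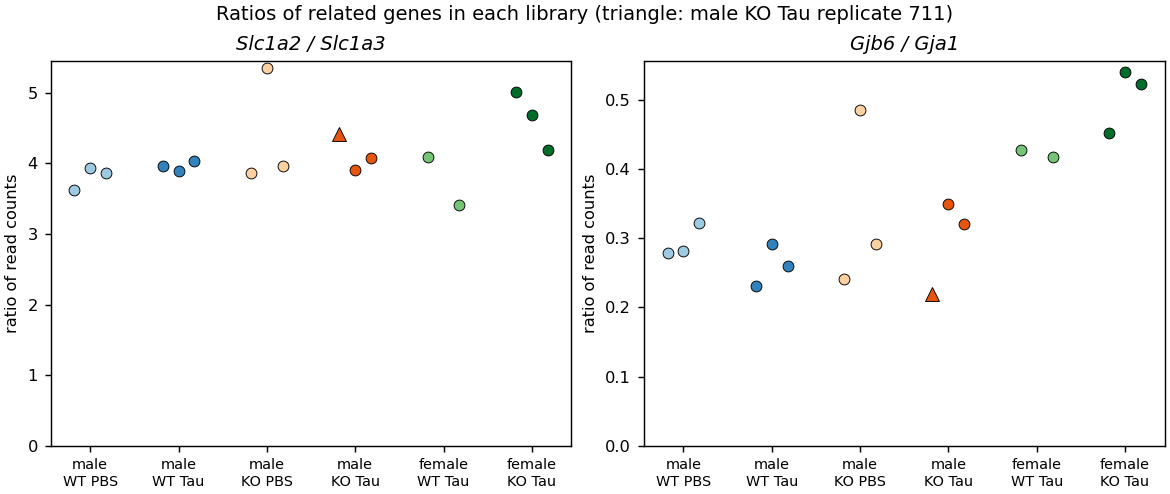
Ratio of read counts (vertical axes, from 0) of Slc1a2 to Slc1a3 and of Gjb6 to Gja1 in each library, by group, with male KO Tau 711 as a triangle. The connexin ratio of all 5 female libraries, 0.417 to 0.540, lies above that of every male library except KO PBS 752, at 0.485.

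A wider list of 40 astrocyte genes was set beside the 9. In the 6 comparisons of males none of the 40 passed the FDR by edgeR. In male KO Tau against male KO PBS all 40 had a positive log2 fold change, with a median of 0.24, and without 711 it was 21 of 40 with a median of 0.02. Their summed level was 14959.7 CPM in 711 and 9022 to 11707 CPM in the other male libraries. In females against males under Tau, 18 of the 40 were higher and 0 lower at an FDR of 0.05, beside 11.4% of all genes higher. The median of the 9 genes was 0.70 and that of the 40 was 0.36. Those with the smallest p were Kcnj16 at 0.96 (SE 0.11, edgeR FDR = 0.00157) and Kcnj10 at 0.86 (SE 0.18, edgeR FDR = 0.0109), which encode partner subunits of the potassium channel of astrocytes, and S100b, a calcium-binding protein gene, at 1.10 (SE 0.20, edgeR FDR = 0.00742). Without 711, 28 of the 40 were higher, beside 3276 of 15450 genes, with 40.7% of all genes called in either direction.

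After the group means were taken out, most of the 9 genes still varied with each other from library to library, and for the transporters this rested on 711. Across the 17 libraries, Pearson's r between the deviation of a gene's log2 CPM and the mean deviation of the other 8 was 0.94 for Glul, 0.92 for Aldoc, 0.87 for Gja1 and 0.85 for Slc4a4. It was 0.68 for Aqp4, 0.67 for Slc1a3, 0.59 for Slc1a2, 0.58 for Gjb6 and 0.27 for Aldh1l1. Without 711 r was −0.00 for Slc1a2 and 0.06 for Slc1a3, and from 0.33 for Aldh1l1 to 0.85 for Glul for the other 7. Among the 10214 other genes with a mean of at least 10 CPM, the 5 that followed the mean of the 9 most closely were Ndrg2, Gramd3, Snap23, Asrgl1 and Sfxn5. For Ndrg2, a gene known to be expressed in astrocytes, r was 0.982 and Spearman's rho 0.980, and r was 0.959 without 711. For the other 4 r was 0.957 to 0.961, and 0.885 to 0.932 without 711. These genes were picked for their likeness, and libraries share depth and tissue make-up across genes, so the values are a description and carry no test.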

How the data were processed

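For each of 17 libraries the deposited table gave 1 column of unnormalized read counts by gene symbol. The authors made these counts by aligning reads with STAR 2.5.2 to mm10 (GRCm38) and counting exon reads in reverse-stranded mode with HTSeq 0.9.1; the annotation release is not given in the sources used here. Groups came from the sample titles.

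The test was edgeR's quasi-likelihood F-test (edgeR 4.0.16, R 4.3.3; TMM factors; filterByExpr, minimum count 10, minimum total 15) and Benjamini-Hochberg adjustment over all genes tested at an FDR of 0.05, in 1 fit of the 12 male libraries (15098 genes), 1 of the 11 Tau libraries (15419) and 1 of all 17 (15594). An SE is the log2 fold change divided by the root of its F statistic. The study's own test was the Wald test of DESeq2 on male mice, for which it describes 2 KO Tau libraries where 3 were deposited; which 2 is not given in the sources used here. DESeq2 1.42.0, limma 3.58.1 voom with quality weights, RLE factors, no filter, other sets of groups in the fit and leaving out each library were the alternatives. The fits were checked on simulated counts. CPM used total counts. No 2 libraries had identical counts. Intervals given by 3 counts cover counting error only.

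The 9 genes, the 13 gene lists and the tests were chosen with earlier results of these data known. Named were all 9 genes, per comparison those with the highest and lowest log2 fold change or an unadjusted p under 0.05, up to 3 genes of a list with the smallest p, and the 5 genes most like the 9 (log2 of CPM + 0.5, deviations from group means). The 9 genes were also named beside fits without a library where their call or direction changed, which was chosen after their values were seen.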

Additional observations from a re-analysis of the deposited data

How the results depend on the processing

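No paired analysis was possible because the groups compared share no replicate number. Over the alternatives, log2 fold changes were recomputed only for genes with the highest or lowest value or an unadjusted p under 0.05 in a comparison. Of these 506, 458 kept their direction and their side of the threshold. Another 30 changed direction, for 8 values none of which passed the FDR with all libraries. Values of the 9 genes outside this selection are not counted here. Some of them also changed direction in fits without 1 library, as the counts of positive genes given above show. Counts of all genes called moved most. With DESeq2 they were 2 for male KO PBS against male WT PBS, 36 for male KO Tau against male KO PBS, 4 against male WT Tau, 15 against male WT PBS, 1 for the sex by genotype interaction and 4464 for any difference. With limma voom they were 2 for male KO Tau against male WT Tau, 11 against male WT PBS, 6189 for female against male and 7107 for any difference. With all 17 libraries in 1 fit male KO Tau against male WT PBS had 3, and with the compared groups alone female KO Tau against female WT Tau had 0. For KO Tau against WT PBS males, Aqp4 came to −0.25 with limma voom. DESeq2 on the groups compared with all their libraries was added after seeing the data. It called 11 genes for male WT Tau against male WT PBS, 4 for male KO PBS against male WT PBS, 0 for male KO Tau against male KO PBS, 28 against male WT Tau, of which 1 of the 9, 22 against male WT PBS and 4 for the female genotypes. The cause was not tested.

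With 1 library left out at a time, edgeR called 0 genes for male WT Tau against male WT PBS, 1 for male KO PBS against male WT PBS, 0 for male KO Tau against male KO PBS, 1 against male WT Tau and 1 against male WT PBS, the same counts as with all libraries. It called 0 to 1 for the female genotypes, 628 to 6290 for female against male and 1664 to 4703 for any difference. With DESeq2 on the groups compared, which changes the tool and the groups in the fit as well, the counts were, in the same order, 1 to 269, 1 to 217, 0 to 16, 2 to 1377, 2 to 1032 and, for the female genotypes, 2 to 40. Of the 9 genes edgeR called 3 to 9 for female against male, and DESeq2 on the groups compared 0 to 3 for male KO Tau against male WT Tau and 0 to 1 against male WT PBS. Over both tools log2 fold changes ranged from −0.30 to 0.042 for Aqp4 and −0.079 to 0.37 for Aldh1l1 in male KO PBS against male WT PBS, from −0.0019 to 0.52 for Glul and −0.44 to 0.16 for Slc4a4 in male KO Tau against male KO PBS, from −0.44 to 0.11 for Aqp4 against male WT Tau and −0.28 to 0.26 against male WT PBS, from −0.45 to 0.14 for Slc4a4 in the male interaction, and from −0.19 to 0.41 for Slc1a2 in the sex by genotype interaction. Pearson's r of Slc1a2 with the other genes was −0.00024 without 711, a setting added after seeing the data, as were the counts of groups without overlap. The coefficient of variation between libraries exceeded the Poisson counting error in 53 of 54 pairs of gene and group, the exception being Gjb6 in male WT PBS.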
